A study of Mus musculus with 10 samples.

Results

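The histone cluster genes described here are the 69 genes, of 24540 named genes in the deposited count table, whose symbols begin with Hist1h to Hist4h. They were chosen by symbol alone and fall into 6 genes for linker histone H1, 19 for H2A, 19 for H2B, 12 for H3 and 13 for H4. RNA was sequenced from 10 mouse libraries in 5 groups of 2. Cells labelled ES-derived cardiomyocytes, of C57BL/6 origin, received 5 nM TCDD, a dioxin that binds the aryl hydrocarbon receptor, for 24, 72 or 96 h. Cells of the same kind with the vehicle for 24 h, DMSO at no more than 0.05% of the medium, served as the control for all 3 times. The labels describe these controls as vehicle control in one place and as untreated in another. Undifferentiated, untreated parental C57BL/6N-C2 embryonic stem (ES) cells formed the fifth group. The cardiomyocyte groups all carried a plasmid with puromycin resistance and green fluorescent protein driven by the Nkx2.5 promoter. They had been differentiated with Noggin and BMP4 and selected with puromycin, so the groups stand for puromycin-selected cells of 1 engineered line. No DMSO library was made at 72 or 96 h, so time in culture and TCDD cannot be told apart at those times.

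Replication-dependent histone genes supply the core histones H2A, H2B, H3 and H4 of the nucleosome and the linker histone H1 while DNA is being copied. Most lie in clusters, have no introns, and are transcribed mainly in S phase. Their messenger RNAs usually end not in a poly(A) tail but just after a short stem-loop, which the stem-loop binding protein holds and which the U7 small nuclear RNA helps to cut. Some of these genes can also give polyadenylated transcripts, as in cells that have stopped dividing. The libraries here were made from RNA selected for poly(A) tails and kept the strand of each transcript. The counts therefore describe what came through that selection and not the whole pool of histone messenger RNA.

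Library totals ran from 15326612 to 31192459 counts. A gene with no count could still have had up to 3, which is 0.0962 to 0.196 CPM (counts scaled to the library total), a limit that covers counting error only. Whether the 2 libraries of a group came from different cultures is not said in the labels, and the p-values therefore rest on a spread that may be technical. Replicate 1 at 72 h of TCDD was unlike the rest in its RNA classes. In ES replicate 2 and in TCDD 24 h replicate 1 counts followed GC content, with ranges of 2.02 and 1.16 log2 units across genes ordered by GC, against at most 0.769 in the others. The labelled cell type was checked on 12 cardiomyocyte genes, whose summed level was 43.1 to 58.6 CPM in 7 of the 8 cardiomyocyte-labelled libraries and 105 CPM in TCDD 72 h replicate 1, against 25.9 and 19.4 CPM in the ES libraries. Within that list the troponin gene Tnnt2 stayed between 0.190 and 0.717 CPM in the cardiomyocyte-labelled libraries. Nkx2-5, the gene whose promoter drove the selection, had 1.01 and 1.05 CPM with DMSO and 1.09 to 3.66 CPM with TCDD, against 0.399 and 0.882 CPM in ES cells. The 9 pluripotency genes summed to 3036 to 5005 CPM in those 8 libraries, against 6694 and 8907 CPM in the ES libraries. The 4 smooth muscle genes summed to 391 to 828 CPM in those libraries, against 5.45 and 7.64 CPM in the ES libraries, and the 4 epithelial genes to 1335 to 2160 CPM, against 572 and 569 CPM. Heart markers were thus low beside markers of pluripotent, smooth muscle and epithelial cells, and the cells are called by their treatment here. In such bulk samples, a change in the share of cells in S phase and a change in RNA per cell cannot be told apart.

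The 3′ ends carry the feature that sets these genes apart from other genes, and several examples are shown because they differ in it. All 69 genes had a transcript in the GENCODE M21 annotation of GRCm38. The 16-base stem-loop, searched on the transcript strand as GGNNCT and AGNNCC around a loop TTTN, was present in 44 of the 54 genes whose annotated transcript runs past the stop codon. It was present in none of the 13 whose transcript ends at the stop codon. The same letters were found in 0.128% of 21810 other protein-coding genes. Genes of H1, H2A, H2B and H3 shared the stem GGCTCT with AGAGCC, whereas the H4 genes had GGCCCT with AGGGCC or, in 2 genes, GGTCCT with AGGACC. In these sequences, read 5′ to 3′ on the gene's strand, capitals mark the stem-loop. They are Hist1h1e at chr13:23621777-23621802 (minus strand), Hist3h2ba at chr11:58949344-58949369 (plus), Hist4h4 at chr6:136803993-136804018 (minus), Hist1h4i at chr13:22040961-22040986 (minus) and Hist1h4b at chr13:23757361-23757386 (plus).
Hist1h1e: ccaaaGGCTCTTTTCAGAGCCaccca
Hist3h2ba: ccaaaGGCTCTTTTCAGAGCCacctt
Hist4h4: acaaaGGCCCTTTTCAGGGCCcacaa
Hist1h4i: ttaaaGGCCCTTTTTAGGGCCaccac
Hist1h4b: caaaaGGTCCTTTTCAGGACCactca

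A polyadenylation signal, AATAAA or ATTAAA beginning in the last 40 bases of an annotated transcript, was present in 17 of the 69 histone genes and in 76.2% of the other protein-coding genes. In 13 of the 17 genes the annotation also holds the stem-loop, and the transcript runs on past it by 169 bases in Hist3h2ba, 330 in Hist1h4i, 840 in Hist1h1c and 2445 in Hist4h4. In the other 4, Hist2h2be, Hist1h4a, Hist1h2bq and Hist1h2br, no stem-loop was found in an annotated transcript. In these sequences capitals mark the signal in Hist3h2ba (chr11:58949504-58949533, plus strand), Hist1h4i (chr13:22040636-22040665, minus), Hist1h1c (chr13:23740338-23740367, plus) and Hist2h2be (chr3:96223709-96223738, plus).
Hist3h2ba: attAATAAAtttggttcaattttggccaca
Hist1h4i: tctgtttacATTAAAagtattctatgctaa
Hist1h1c: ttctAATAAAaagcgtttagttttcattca
Hist2h2be: ttattattAATAAAgttaccgattagtttc

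Histone cluster genes took a very small part of every library. Their 8963 counts over the 10 libraries made up 0.00211 to 0.00365% of the counts in 9 libraries and 0.0136% (2081 of 15326612 counts) in TCDD 72 h replicate 1. After scaling between libraries by the trimmed mean of M-values (TMM), the summed level of the 69 genes was 31.7 and 29.7 CPM at 24 h of TCDD, 132 and 35.2 CPM at 72 h, 31.2 and 30.6 CPM at 96 h, 26.1 and 27.8 CPM with DMSO, and 20.7 and 38.3 CPM in ES cells. One library, TCDD 72 h replicate 1, was high, and the other 9 lay between the values of the ES pair. The group means were 30.7 ± 1.45, 83.6 ± 68.5 and 30.9 ± 0.435 CPM at 24, 72 and 96 h of TCDD, against 26.9 ± 1.16 CPM with DMSO and 29.5 ± 12.4 CPM in ES cells (SD, n = 2 each). The spread within the 72 h pair was thus nearly as large as its mean.

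**Figure D1:**
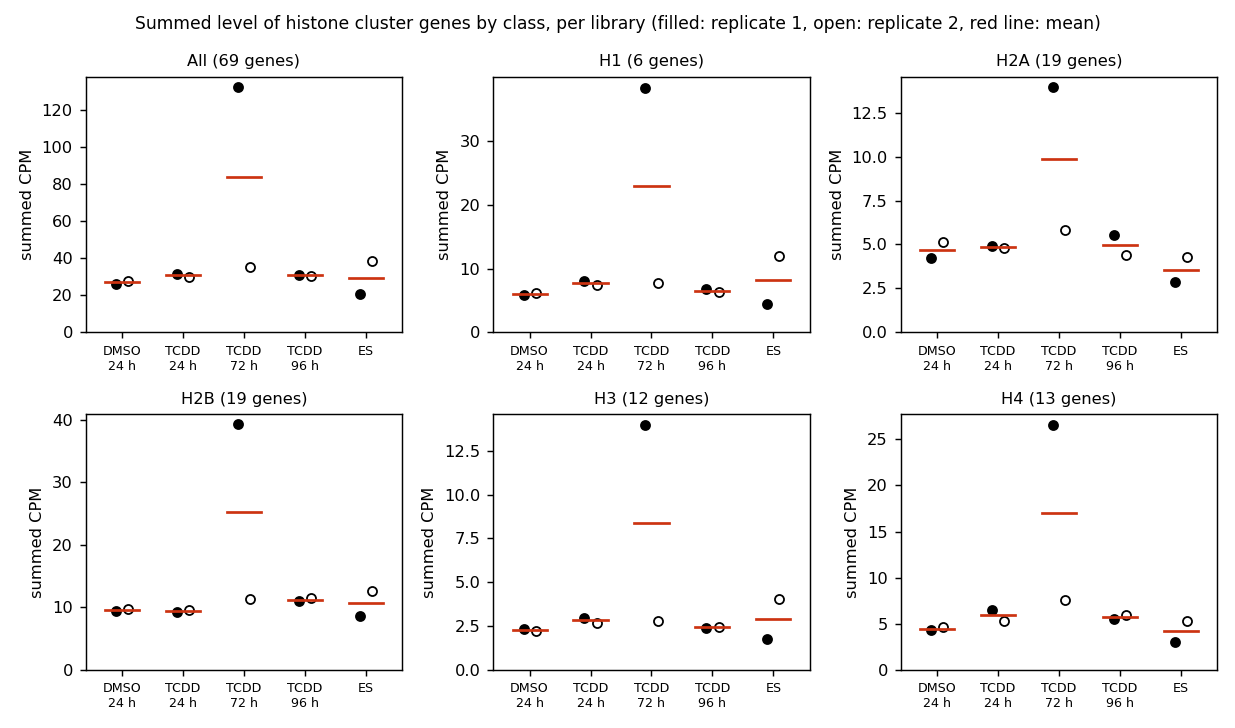
Summed CPM of all 69 histone cluster genes and of each class, for each library; filled points are replicate 1, open points replicate 2 and red lines the mean of each group of 2. TCDD 72 h replicate 1 reached 132 CPM over all genes, and the highest of the other libraries, ES replicate 2, reached 38.3 CPM.

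All 5 classes showed the high library. In replicate 1 against replicate 2 at 72 h of TCDD, the summed level was 38.3 against 7.71 CPM for H1, 14.0 against 5.81 CPM for H2A, 39.3 against 11.3 CPM for H2B, 14.0 against 2.79 CPM for H3 and 26.5 against 7.54 CPM for H4. The ratio of replicate 1 to replicate 2 was lowest for H2A at 2.40 and highest for H3 at 5.00. In replicate 2 the H2A and H4 sums were still the highest of the remaining 9 libraries, and for H1, H2B and H3 ES replicate 2 was higher. TCDD 24 h replicate 1 was also higher for H1 and H3, at 8.03 and 2.96 CPM, and TCDD 96 h replicate 2 for H2B, at 11.4 CPM.

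The 69 genes lie in 4 places. The Hist1 cluster on chromosome 13 holds 55 genes and 7619 of the counts, the Hist2 cluster on chromosome 3 holds 10 genes and 812 counts, the Hist3 genes on chromosome 11 are 3 with 440 counts, and Hist4h4 on chromosome 6 had 92 counts. A filter on low counts that used group sizes but no group labels kept 15175 genes, 61.8% of the named genes, for testing. Of the histone genes 35 passed it, namely 5 of H1, 7 of H2A, 10 of H2B, 5 of H3 and 8 of H4, and these held 88.7% of the histone counts. A further 25 had between 1 and 88 counts over all libraries, and 20 of those were also highest in TCDD 72 h replicate 1. The remaining 9 genes had no count in any library. All 9 overlap another histone gene on the same strand in the table's coordinates, such as Hist2h3c1 with Hist2h3c2 and Hist1h2ao with Hist1h2ap, against 1 of the 60 genes with a count. These 2 pairs do not overlap in RefSeq, where Hist2h3c1 lies at chr3:96246685-96247348 and Hist2h3c2 at chr3:96238479-96239127. The count table's start is offset from RefSeq by -8207 bases for Hist2h3c1 and by -22558 bases for Hist1h2ap. The sources used here do not give how reads matching several places were counted. The zeros of these closely similar copies are uncertain for that reason and for the overlaps in the table's coordinates, and neither was tested. Sharing of reads among other members of a class could not be checked either.

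Among the linker histone genes, Hist1h1c had the most counts. It stood at 3.57 and 2.54 CPM at 24 h of TCDD, 6.60 and 3.37 CPM at 72 h, 3.33 and 3.50 CPM at 96 h, 2.72 and 3.25 CPM with DMSO, and 1.99 and 4.60 CPM in ES cells. Only replicate 1 at 72 h lay above the range of the ES pair. Hist1h1a had 1.34 and 1.01 CPM at 24 h of TCDD, 10.6 and 0.842 CPM at 72 h, 1.19 and 0.904 CPM at 96 h, 1.07 and 1.00 CPM with DMSO, and 0.886 and 1.81 CPM in ES cells. Its replicates at 72 h were the highest and the lowest of the 10 libraries. Hist1h1e had 1.04 and 1.49 CPM at 24 h of TCDD, 6.92 and 1.77 CPM at 72 h, 0.923 and 0.640 CPM at 96 h, 0.458 and 0.573 CPM with DMSO, and 0.487 and 2.45 CPM in ES cells. All 6 TCDD libraries lay above both DMSO libraries, but ES replicate 2 lay above all of them except replicate 1 at 72 h. The testis linker histone gene Hist1h1t had 17 counts over all libraries and was not tested.

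In class H2A, Hist3h2a had 1.31 and 1.12 CPM at 24 h of TCDD, 2.35 and 1.46 CPM at 72 h, 1.65 and 1.28 CPM at 96 h, 1.07 and 1.43 CPM with DMSO, and 0.709 and 0.980 CPM in ES cells. The TCDD and DMSO libraries overlapped. Hist1h2ae had 0.653 and 0.761 CPM at 24 h of TCDD, 0.825 and 0.842 CPM at 72 h, 0.857 and 0.866 CPM at 96 h, 0.458 and 0.526 CPM with DMSO, and 0.354 and 0.539 CPM in ES cells. It was even within each TCDD pair, and all 6 TCDD libraries were above both DMSO libraries. Hist1h2ag had 1.27 and 0.842 CPM at 72 h of TCDD, against 0.733 and 0.669 CPM with DMSO and 0.354 and 0.294 CPM in ES cells. The testis gene Hist1h2aa had 13 counts in all.

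In class H2B, Hist1h2bc had the most counts of all 69 genes. It had 3.23 and 2.83 CPM at 24 h of TCDD, 4.44 and 5.50 CPM at 72 h, 4.61 and 5.42 CPM at 96 h, 4.68 and 5.16 CPM with DMSO, and 3.01 and 6.07 CPM in ES cells. It was not high in TCDD 72 h replicate 1, and its annotated transcript holds neither a stem-loop nor a signal within the window searched. Hist2h2bb had 1.34 and 1.38 CPM at 24 h of TCDD, 11.2 and 0.887 CPM at 72 h, 1.02 and 0.716 CPM at 96 h, 0.703 and 1.15 CPM with DMSO, and 0.842 and 1.13 CPM in ES cells. Both 24 h libraries lay above all others except replicate 1 at 72 h, and replicate 2 at 72 h lay within the DMSO and ES ranges. Hist1h2bn behaved alike in that library, with 4.44 CPM in replicate 1 and 0.621 CPM in replicate 2. The testis gene Hist1h2ba had 1 count and the pseudogene Hist3h2bb-ps had 6.

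The H3 genes with the most counts, Hist1h3e, Hist1h3g and Hist1h3c, had 3.74, 1.59 and 1.14 CPM in TCDD 72 h replicate 1 and 0.576, 0.266 and 0.532 CPM in replicate 2. Hist1h3e had 0.367 and 0.430 CPM with DMSO and 0.354 and 0.882 CPM in ES cells. Replicate 2 at 72 h thus lay inside the ES range. In class H4, Hist1h4i had 2.00 and 1.92 CPM at 24 h of TCDD, 3.68 and 2.84 CPM at 72 h, 2.27 and 2.45 CPM at 96 h, 1.80 and 1.58 CPM with DMSO, and 1.46 and 2.06 CPM in ES cells. Both of its 72 h libraries were above the other 8. Hist1h4d had 4.06 and 1.24 CPM at 72 h, against 0.795 and 0.812 CPM with DMSO, and Hist1h4b had 2.86 and 0.887 CPM against 0.428 and 0.239 CPM. Hist4h4 had 0.269 and 0.326 CPM at 24 h of TCDD, 1.71 and 0.576 CPM at 72 h, 0.362 and 0.414 CPM at 96 h, 0.122 and 0.0956 CPM with DMSO, and 0.133 and 0.245 CPM in ES cells. All 6 TCDD libraries were above the 4 others, although its DMSO levels lay close to or below the limit for a gene without counts.

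**Figure D2:**
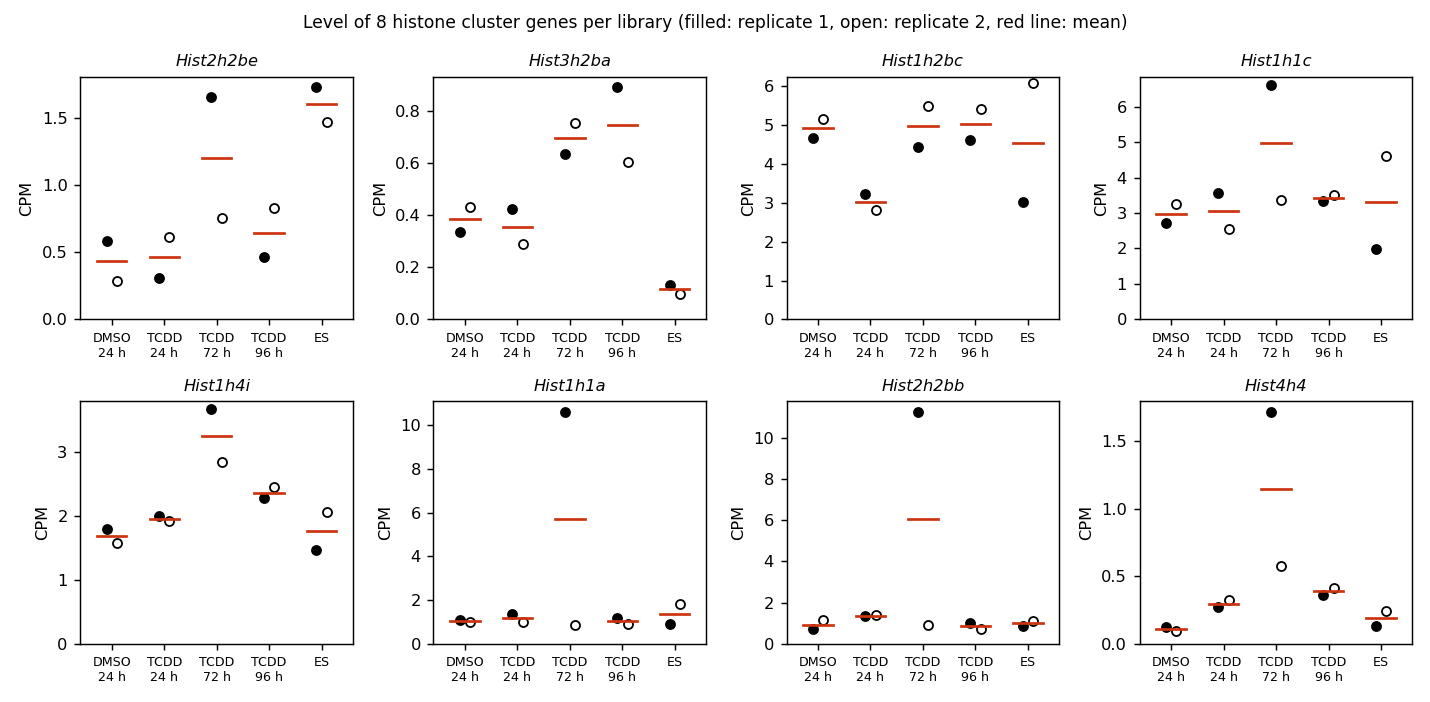
CPM of 8 histone cluster genes in each library; filled points are replicate 1, open points replicate 2 and red lines the mean of each group of 2. Hist1h1a, Hist2h2bb and Hist4h4 peaked in TCDD 72 h replicate 1 at 10.6, 11.2 and 1.71 CPM, whereas Hist1h2bc had 4.44 CPM there and 5.50 CPM in replicate 2.

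TCDD 72 h replicate 1 was the highest of the 10 libraries for 31 of the 35 tested histone genes, whereas it was the highest for 22.2% of the 15175 genes. The exceptions were Hist1h2bc and Hist2h2be, which were highest in an ES library, and Hist3h2ba and Hist1h2ae, which were highest at 96 h of TCDD. The ratio of replicate 1 to replicate 2 at 72 h had a median of 3.46 over the 35 genes, with a range of 0.808 to 13.2, and 27 of them were above 2. Over all tested genes the median was 0.998 and 9.86% were above 2. The 3 highest ratios belonged to Hist1h2bb at 13.2, Hist2h2bb at 12.7 and Hist1h1a at 12.6.

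The genes with an annotated polyadenylation signal were less uneven between the 72 h replicates. This split was made after the ratios had been seen, so it is a description and was not tested. The 10 tested genes with the signal had a median ratio of 2.07, ranging from 0.842 to 8.35, and 5 of them were above 2. The 25 without it had a median of 3.90, ranging from 0.808 to 13.2, and 22 were above 2. Among the 25 are Hist2h2bb, Hist1h2bn, Hist1h1b, Hist1h2ak and Hist1h2ai, with ratios of 12.7, 7.16, 6.93, 3.72 and 2.86. Their annotated transcripts end at the stop codon, so a signal past it could not be found. Of the 8 genes at or below 2, 5 had the signal, namely Hist3h2ba, Hist1h2ae, Hist1h4i, Hist3h2a and Hist1h1c, and 3 did not, namely Hist1h2bc, Hist1h2af and Hist1h2ag. In summed level the genes with the signal had 23.2 CPM in replicate 1 and 11.7 CPM in replicate 2, and the others 88.7 CPM in replicate 1 and 21.0 CPM in replicate 2. The ranges overlap almost completely, and H4 genes with the signal, such as Hist1h4a at 8.35, were among the uneven ones.

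**Figure D3:**
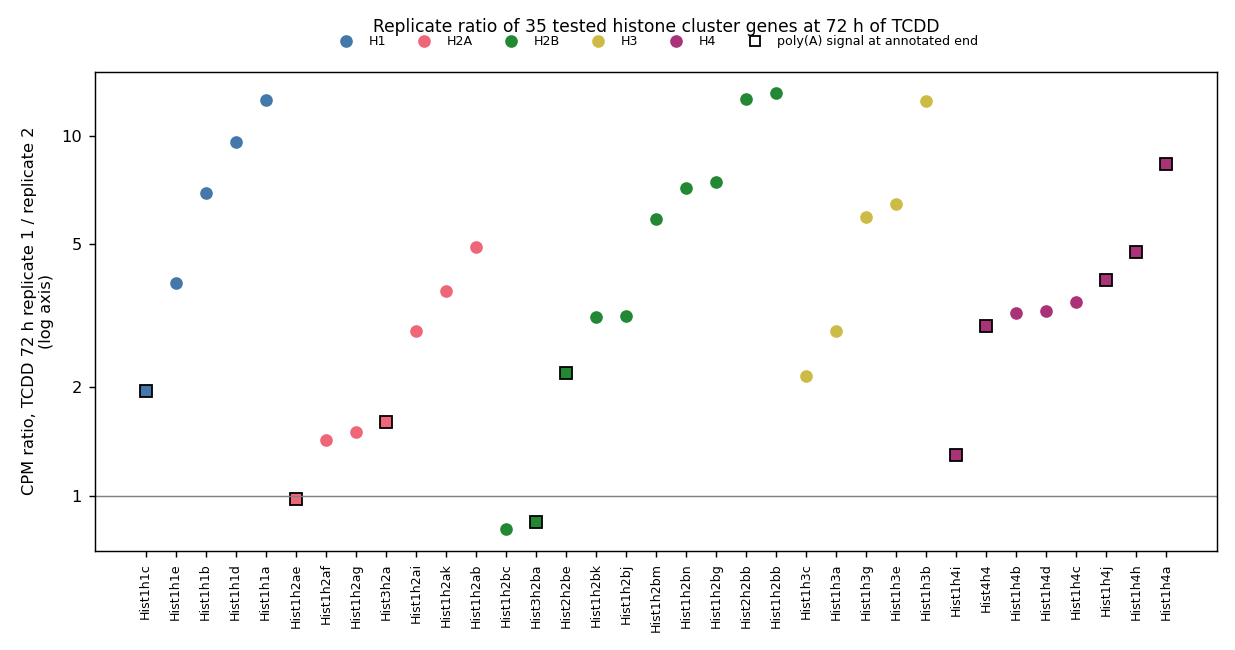
Ratio of CPM in TCDD 72 h replicate 1 to replicate 2 (log axis) for each of the 35 tested histone cluster genes, coloured by class and ordered by ratio within a class; squares have a polyadenylation signal at the annotated end. The ratios run from 0.808 for Hist1h2bc to 13.2 for Hist1h2bb.

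Several non-coding RNAs, most of which lack a poly(A) tail, were high in the same library. The ribosomal RNA gene Rn45s had 106530 CPM in TCDD 72 h replicate 1 and 24470 CPM in replicate 2, and lay between 13724 and 48150 CPM in the other libraries. Rmrp, the RNA of a ribonucleoprotein that cuts ribosomal RNA precursors, had 194 CPM in replicate 1 and 4.74 CPM in replicate 2. Rpph1, the RNA of RNase P, had 31.0 CPM in replicate 1 and 4.48 CPM in replicate 2. The nuclear RNAs Malat1 and Neat1 had 2777 and 259 CPM in replicate 1, and 418 and 32.0 CPM in replicate 2. The 119 small nucleolar and Cajal body RNA genes summed to 229 CPM in replicate 1 and 69.1 CPM in replicate 2, with 34.3 to 66.9 CPM elsewhere. Of the list of 17 such RNAs chosen here, 10 were in the table and 5 passed the filter, and these 5 were all higher in the 72 h mean than with DMSO, with no call by edgeR at an adjusted p under 0.05. Gene lists of other messenger RNAs went either way. The 11 replacement histone genes summed to 1701 CPM in replicate 1 and 2505 CPM in replicate 2, and the 26 S phase genes to 4069 CPM in replicate 1 and 5274 CPM in replicate 2. The 12 cardiomyocyte genes summed to 105 CPM in replicate 1 and 58.6 CPM in replicate 2, of which the titin gene Ttn had 65.3 and 18.8 CPM, and 4 epithelial genes summed to 2029 and 1714 CPM. The part that these RNA classes have in the histone values was not tested.

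**Figure D4:**
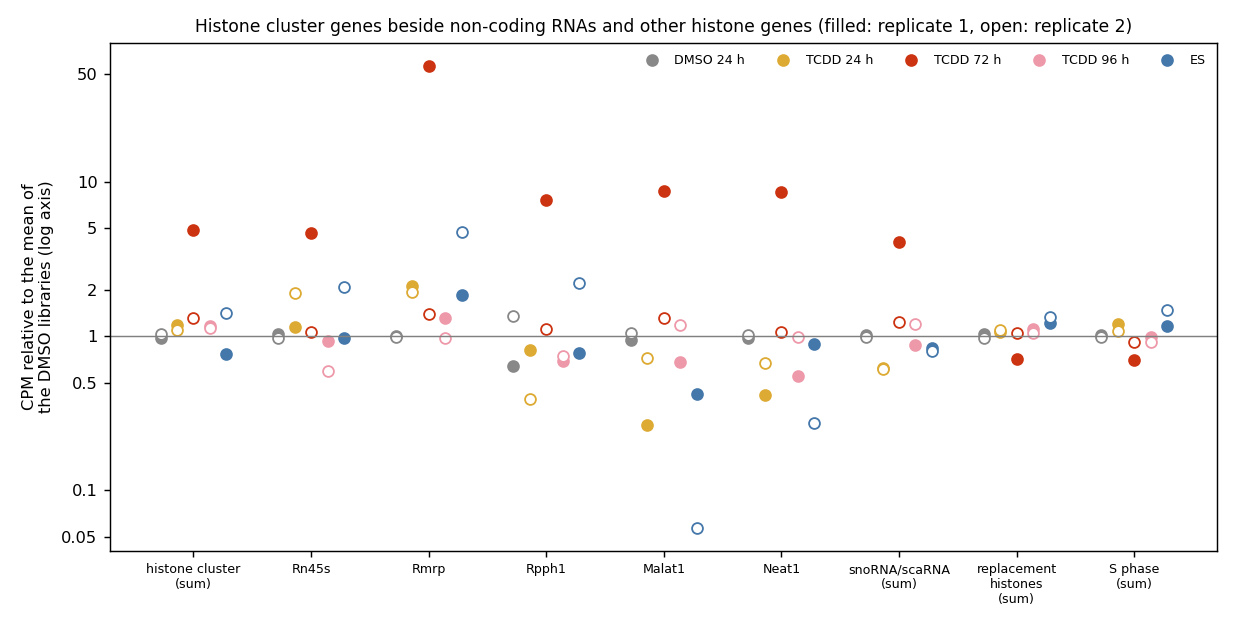
CPM in each library relative to the mean of the DMSO libraries (log axis) for the summed histone cluster genes, 5 non-coding RNAs and 3 summed gene lists; filled points are replicate 1 and open points replicate 2. In TCDD 72 h replicate 1 the histone sum stood at 4.90, Rmrp at 56.7 and Malat1 at 8.71 times the DMSO mean, whereas S phase genes stood at 0.705.

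The comparison of 24 h of TCDD with DMSO asks for an early response at matched time. By edgeR's quasi-likelihood test, which was fitted to all 10 libraries with Benjamini-Hochberg adjustment over the 15175 genes, none of the 35 histone genes was called at an adjusted p under 0.05, and the share called among all genes was 0%. At an unadjusted p under 0.05 the histone genes numbered 0, against 8.54% of all genes, and DESeq2 and limma-voom also called 0. Of the 35 genes, 27 had a log2 fold change above 0, and their median was 0.31 against 0.02 for all genes. The median by class was 0.36 for H1, 0.31 for H2A, 0.23 for H2B, 0.49 for H3 and 0.46 for H4. Hist1h2bc, whose 24 h libraries were both below both DMSO libraries, had a log2 fold change of -0.70 ± 0.33 (SE) with an adjusted p of 0.521.

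At 72 h of TCDD against DMSO, every one of the 35 histone genes had a log2 fold change above 0, yet none was called by edgeR, where 0.0461% of all genes were. At an unadjusted p under 0.05 there were 24 histone genes, all higher. Among all genes 14.6% passed that level, with 9.83% of all genes higher. DESeq2 called 3, Hist1h1e, Hist2h2bb and Hist4h4, and 1.76% of all genes with an adjusted p, and limma-voom called 0 histone genes. The median log2 fold change was 1.98, against 0.03 for all genes, and it was 2.38 for H1, 0.77 for H2A, 1.82 for H2B, 1.54 for H3 and 2.15 for H4. Both 72 h libraries lay above both DMSO libraries for 26 of the 35 genes, and for 29% of all genes. The smallest p in each class belonged to Hist4h4 with a log2 fold change of 3.26 ± 0.66 (adjusted p = 0.107), Hist1h1e with 3.06 ± 0.81 (adjusted p = 0.159), Hist1h2bm with 2.46 ± 0.76 (adjusted p = 0.197), Hist1h2ai with 2.41 ± 0.81 (adjusted p = 0.224) and Hist1h3e with 2.39 ± 0.82 (adjusted p = 0.23), each SE from edgeR.

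Replicate 1 decided the size of these differences. Without it, the same 35 genes had a median log2 fold change of 0.52, with 30 above 0 and 5 below, 2 at an unadjusted p under 0.05 and 0 called, as were 0% of all genes in that fit. Without replicate 2 in its place, the same 35 genes had a median of 2.65 and 20 of them were called by edgeR, where 6.08% of all genes were. That fit passed 50 histone genes, since with 1 library left at 72 h the filter could keep a gene for that library alone. Hist1h4f, at 2.03 CPM in replicate 1 and at most 0.290 CPM elsewhere, entered in this way. Calls among genes that entered so are left out of the count of called genes in this paragraph. In both fits the lone 72 h library is assumed to vary like the groups that kept both libraries. Summed by class, the log2 fold change was 1.94 for H1, 1.07 for H2A, 1.40 for H2B, 1.86 for H3 and 1.93 for H4 with both replicates. Without replicate 1 it was 0.36 for H1, 0.31 for H2A, 0.24 for H2B, 0.29 for H3 and 0.76 for H4. Replicate 2 lay above both DMSO libraries for 27 of the 35 genes and below both for 2, against 45.5% and 39.9% of all genes. Hist4h4, with 2.32 without replicate 1 (adjusted p = 0.288 by edgeR), remained the gene with the smallest p. When the 3 libraries described above as unlike the rest (1 each of ES, TCDD 24 h and TCDD 72 h) were all left out, edgeR called Hist1h1e at 1.78 (adjusted p = 0.0133) and Hist4h4 at 2.30 (adjusted p = 0.0452), while it called 12.8% of all genes. The same assumption holds in that fit.

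**Figure D5:**
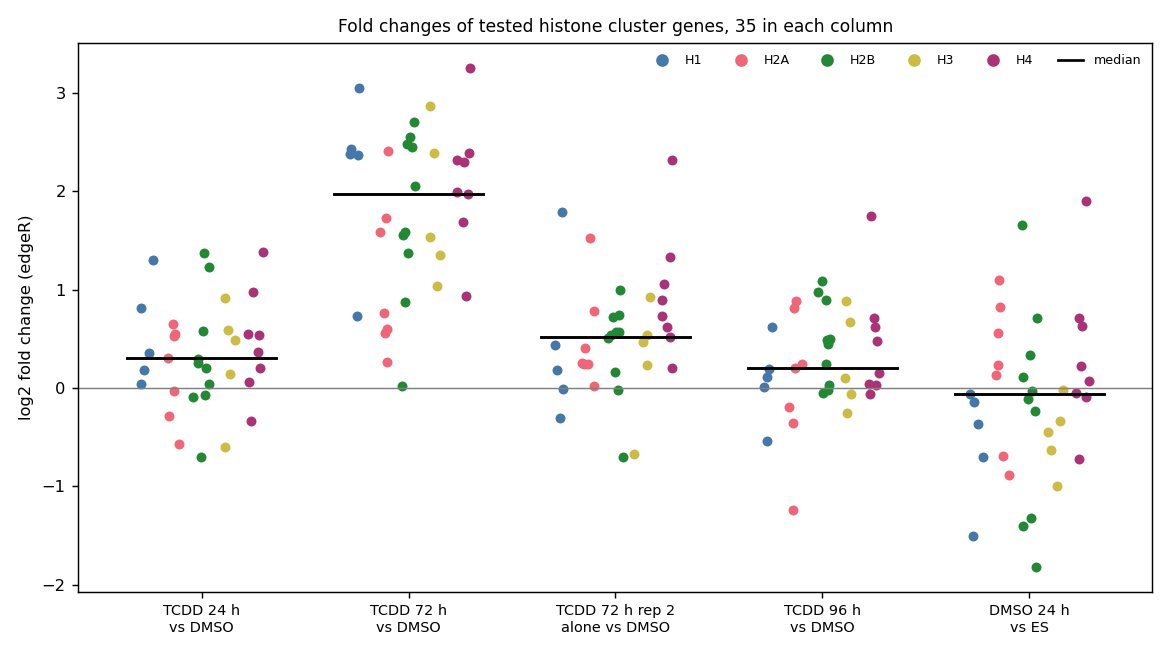
Log2 fold changes from edgeR for the 35 tested histone cluster genes in 4 comparisons, and at 72 h with replicate 2 alone; points are genes coloured by class and black lines are medians. The median at 72 h of TCDD against DMSO was 1.98 with both replicates and 0.52 with replicate 2 alone.

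At 96 h of TCDD against DMSO, edgeR called none of the 35 histone genes, against 0.0857% of all genes, and DESeq2 and limma-voom also called 0. The median log2 fold change was 0.20, against 0.01 for all genes, with 26 genes above 0. There were 4 genes at an unadjusted p under 0.05, against 12.2% of all genes. Of these, Hist4h4 had a log2 fold change of 1.76 ± 0.71, Hist3h2ba of 0.98 ± 0.41 and Hist1h2ae of 0.81 ± 0.35, and Hist1h2af of -1.24 ± 0.51 (SE). Their adjusted p-values by edgeR were 0.35, 0.373, 0.397 and 0.368. Over all TCDD times, 6 of the 35 genes had all 6 TCDD libraries above both DMSO libraries and 0 had all below, against 11.3% and 10.2% of all genes. The 6 were Hist1h1e, Hist1h2ae, Hist1h2bj, Hist1h2bm, Hist1h4i and Hist4h4.

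Between TCDD times edgeR called no histone gene, and 0% of all genes were called in each of these 3 comparisons. At 72 h against 24 h, the median log2 fold change was 1.34 with 16 genes at an unadjusted p under 0.05, against 21.6% of all genes. It was -1.52 at 96 h against 72 h with 15 such genes, against 4.68% of all genes. It was 0.05 at 96 h against 24 h with 1 such gene, against 11.6% of all genes. DESeq2 and limma-voom called 0 in all 3. Both comparisons with the 72 h group share its libraries. Without TCDD 72 h replicate 1 their medians were 0.25 at 72 h against 24 h and -0.25 at 96 h against 72 h. At 72 h against 24 h edgeR called 10 histone genes and 9.87% of all genes when fitted to those 4 libraries only, among them Hist1h2bn at 2.29 (adjusted p = 0.00143) and Hist1h1d at 2.03 (adjusted p = 0.0022).

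The DMSO group against ES cells is the comparison in which many genes changed, with 31% of the 15175 genes called by edgeR. Of the 35 histone genes, 1 was called higher and 1 lower, both of class H2B, against 15.5% of all genes in each direction. At an unadjusted p under 0.05 there were 3, against 43.7% of all genes, and the median log2 fold change was -0.06, against 0.01 for all genes. All 5 tested H1 genes and all 5 tested H3 genes had a log2 fold change below 0, against 2 of 7 for H2A, 6 of 10 for H2B and 3 of 8 for H4. Summed H1 was 5.78 and 6.21 CPM with DMSO, between 4.48 CPM in ES replicate 1 and 11.95 CPM in ES replicate 2. Summed H3 was 2.35 and 2.20 CPM with DMSO, between 1.77 and 4.02 CPM in those ES replicates. The ES libraries themselves were uneven, since only 4 of the 35 genes were higher in ES replicate 1 than in replicate 2, and replicate 1 was the lowest of all libraries for 17. The tested histone genes had a median GC content of 56.0%, against 50.2% for all tested genes, and ES replicate 2 was the library with the widest GC trend. The part of GC content in the histone values was not tested beyond the correction for the trend, after which edgeR again called 2 histone genes and 43.1% of all genes. Over the 50 histone genes that passed the filter when 1 ES library was left out, the median was -0.30 without replicate 1 and 0.37 without replicate 2.

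Hist2h2be, whose transcript is annotated with a polyadenylation signal, fell in the DMSO group relative to ES cells. It had 0.581 and 0.287 CPM with DMSO, against 1.73 and 1.47 CPM in ES cells, a log2 fold change of -1.82 ± 0.54 (SE, edgeR adjusted p = 0.0325). The groups did not overlap, and both ES libraries were also above all of the 24 and 96 h TCDD libraries. Leaving out each library in turn gave -2.45 to -1.45, and the call was lost without either ES library (adjusted p of 0.0547 and 0.0539) and without either DMSO library (0.0764 and 0.192). Hist3h2ba, an H2B gene outside the large clusters, rose. It had 0.336 and 0.430 CPM with DMSO, against 0.133 and 0.0980 CPM in ES cells, a log2 fold change of 1.66 ± 0.55 (edgeR adjusted p = 0.0489). Its ES levels lay at or below the limit for a gene without counts, and all 8 cardiomyocyte-labelled libraries were above both ES libraries. The call was lost under 15 of the 19 other settings tried, with adjusted p up to 0.223 when ES replicate 2 was left out, and the log2 fold change stayed between 1.45 and 1.90.

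The other genes of histone supply were taken from lists chosen here. Between TCDD and DMSO, edgeR called none of 11 replacement histone genes, 21 genes of histone transcript regulation and processing, 12 histone chaperone genes and 26 S phase genes at any time. Among all genes the share called was 0%, 0.0461% and 0.0857% at 24, 72 and 96 h, so the lack of calls does not set these lists apart. At 72 h of TCDD, 24 of the 26 S phase genes had a log2 fold change below 0, with a median of -0.32. In the DMSO group against ES cells, 15.5% of all genes were called in each direction, to be read beside the counts of each list. There 0 of 11 replacement histone genes rose and 6 fell. The smallest p-values were those of H2afy2 and H2afy, which encode macroH2A variants, with log2 fold changes of -1.29 ± 0.23 and -1.08 ± 0.23, and the linker histone gene H1fx fell most, by 1.41 ± 0.35. Of the 21 regulation and processing genes 3 rose and 2 fell, near or below the 15.5% of all genes called in each direction. Ccne2, a cyclin of S phase entry, had a log2 fold change of 2.61 ± 0.52, and Casp8ap2, which encodes a protein needed for histone gene transcription and processing, one of 2.70 ± 0.70. Of the chaperone genes 3 rose and 2 fell, with Asf1a at 1.62 ± 0.34 and Nasp at 1.79 ± 0.46 among the higher and Chaf1b and Asf1b the lower. None of the 26 S phase genes rose and 7 fell, with the smallest p-values for Rpa2 at -1.40 ± 0.25 and Gins2 at -1.27 ± 0.25 and the largest fall for E2f2 at -1.44 ± 0.31. All these are edgeR estimates with SE and an adjusted p under 0.05. Several of these genes were uneven in the ES pair, with ES replicate 2, the library with the widest GC trend, further from DMSO. In ES replicates 1 and 2, Casp8ap2 had 17.3 and 2.89 CPM, Nasp 251 and 78.9 CPM, and H1fx 65.1 and 139 CPM. H2afy2 was even, at 38.8 and 40.2 CPM. The sizes of the uneven changes thus depend on that library.

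The promoters of the histone genes carry short motifs whose frequency differs between classes. RefSeq promoters of GRCm38.p6, from 250 bases before to 50 after the start, were found for 62 of the 69 genes and read on both strands. CCAAT was present in 85.5% of them, against 41% of 26963 other promoters, and TATAAA in 56.5%, against 15.6%. CCAAT was present in every promoter of H1, H2A, H2B and H3 genes and in 3 of the 12 H4 promoters. The octamer ATTTGCAT was present in 7 of 18 H2A and 7 of 16 H2B promoters and in no other class, against 1.92% of other promoters. The end of CCAAT can be the start of ATTTGCAT, and a match describes the sequence only. Printed here are an H2B gene that was high in TCDD 72 h replicate 1, Hist1h2bm (chr13:21721794-21722093, plus strand), which has the octamer, and one that was not, Hist3h2ba (chr11:58948661-58948960, plus strand), which has TATAAA, with capitals for the motifs on either strand.
Hist1h2bm: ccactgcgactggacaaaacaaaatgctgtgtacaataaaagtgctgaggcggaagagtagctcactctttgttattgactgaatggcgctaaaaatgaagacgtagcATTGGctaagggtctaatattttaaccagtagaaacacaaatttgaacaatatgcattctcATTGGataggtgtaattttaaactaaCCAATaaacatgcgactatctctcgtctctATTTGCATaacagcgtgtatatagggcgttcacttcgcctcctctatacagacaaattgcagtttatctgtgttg
Hist3h2ba: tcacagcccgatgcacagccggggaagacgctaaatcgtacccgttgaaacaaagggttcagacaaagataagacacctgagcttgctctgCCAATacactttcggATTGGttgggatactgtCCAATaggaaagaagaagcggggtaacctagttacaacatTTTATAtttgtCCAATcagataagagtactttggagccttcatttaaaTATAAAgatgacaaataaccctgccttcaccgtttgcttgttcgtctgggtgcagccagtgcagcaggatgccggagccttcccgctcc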

How the data were processed

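Libraries were poly(A)-selected, dUTP-stranded and read as single 51-base reads, per the labels' protocols. Per the submitters' processing notes, bcl2fastq, CASAVA 1.8, TopHat and edgeR were used with build mm10; the sources used here give neither counting tool nor annotation. The authors deposited raw read counts per gene; 1 unnamed row, at most 0.00285% of a library, was left out. Deviations of replicate 1 libraries from their group means correlated between groups at -0.75 to 0.45, with mixed signs, and the reported fit used no pairing. The GC trends of single libraries can enter these correlations, so they cannot tell whether replicate numbers pair libraries.

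Counts of all 10 libraries were fitted in edgeR 4.0.16 (R 4.3.3) with 1 mean per group, TMM factors, filterByExpr and a robust quasi-likelihood test, adjusted by Benjamini-Hochberg over all genes tested. Members, gene lists and tests were chosen with earlier results of these data known. Genes named were the 3 of each class with the highest mean CPM, testis-type genes, Hist3 and Hist4 genes, all called genes and the smallest p in each class; others were chosen after their values were seen. CPM is not corrected for length. Library totals limit precision to 0.0962 to 0.196 CPM for 3 counts. Alternatives included DESeq2 1.42.0, limma-voom 3.58.1, other scalings and filters, a replicate block, a GC offset (loess span 0.3) and leaving libraries out. Scripts were tested on simulated counts.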

Additional observations from a re-analysis of the deposited data

How the results depend on the processing

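At 24 h of TCDD against DMSO, the count of 0 called histone genes was kept under every alternative run except the joint removal of 3 libraries (TCDD 24 h replicate 1, TCDD 72 h replicate 1, ES replicate 2), which called 1. At 72 h against DMSO the count was 3 by DESeq2, 2 without the ES libraries, 1 with the GC trend removed and 2 with the joint removal. At 96 h against DMSO it was 1, Hist4h4, with only the 2 groups fitted and 1, Hist4h4 again, with the joint removal. At 72 h against 24 h it was 10 with only the 2 groups fitted and 1 with the joint removal, and at 96 h against 24 h it was 1 with the joint removal. In the DMSO group against ES cells, 2 genes were called in the reported fit, and 1 with RLE factors, with no filter, with a filter of 1 CPM in 2 libraries, by DESeq2 and by limma-voom. That count was 0 with only the 2 groups fitted, 0 with the replicate block, 0 at an adjusted p under 0.01 and 4 with the joint removal. Where the replicate number was added as a block, no TCDD comparison gained a call. The share of all genes called moved between settings too, and it is given here for some settings only. Counts printed without such a share cannot be set against all genes. At 72 h against DMSO it was 0.0461% in the reported fit and 1.76% by DESeq2. At 72 h against 24 h it was 0% in the reported fit and 9.87% with only the 2 groups fitted. In DMSO against ES it was 31% in the reported fit and 43.1% with the GC trend removed. Whether the histone counts differ from these shares was not tested, so they are not read as particular to the histone genes. Leaving out 1 library at a time gave 0 to 3 calls in DMSO against ES, 0 to 27 at 72 h against DMSO, 0 to 23 at 72 h against 24 h, 0 to 16 at 96 h against 72 h, and 0 in the other comparisons. The highest counts in the comparisons with the 72 h group came from the fit without TCDD 72 h replicate 2. They include genes outside the 35 tested ones, which the filter could keep for replicate 1 alone. With 1 library left at 72 h, these counts show the range only, and no conclusion is drawn from them. At 72 h against DMSO the median was 1.98 in the reported fit. Over the same 35 genes it was 0.52 without TCDD 72 h replicate 1 and 2.65 without replicate 2. At 72 h against 24 h it was 1.34 in the reported fit, 0.25 without replicate 1 and 2.26 without replicate 2. At 96 h against 72 h it was -1.52, -0.25 and -2.43 in that order. The fit without replicate 2 held 50 histone genes, and its medians in the last 2 comparisons were over all of them. The cause of these shifts was not tested. Hist2h2be and Hist3h2ba, the 2 genes called in the reported fit, kept their direction under every setting that gave them a value. Of the 3 genes called by DESeq2 at 72 h, Hist2h2bb had a log2 fold change of -0.02 by edgeR without TCDD 72 h replicate 1. Classes summed as single values give no count of genes. Most histone genes had under 1 CPM, and 58 of 69 stayed under it in every library but TCDD 72 h replicate 1. Small differences could be missed at such levels, and the smallest detectable one was not computed.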
